A study of Mus musculus with 8 samples.

Results

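The 10 genes described here were taken as markers of the fibroblasts of the leptomeninges, the pial and arachnoid layers that cover the brain. They were chosen by name from the 38553 genes of the deposited table, as meningeal genes other than the collagens and *Igf2*. Earlier results of these data were known when they were chosen. The shares over all genes given below are therefore descriptions and not tests of the members as a set. All 10 were found, and 9 of them reached a mean FPKM (sequenced fragments scaled by exon length and by library depth) of at least 1 and were tested among 13674 genes. The study compared RNA of dorsal and ventral medial entorhinal cortex (MEC), the cortical area that holds grid cells, to ask which genes differ along this axis. Each brain of 13 male C57BL/6JolaHsd mice, aged 8 weeks, gave a sagittal slice from which both regions were microdissected. Tissue was pooled over 3 or 4 mice, which gave 4 dorsal and 4 ventral libraries. No mouse was treated and no cell type was sorted, so each library holds whole tissue. Which cells the RNA of each member came from was not tested.

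Leptomeningeal fibroblasts lay down the extracellular matrix of the brain surface and carry membrane transporters that move neurotransmitters, organic anions and sulfate between cerebrospinal fluid and tissue. They also make retinoic acid, the vitamin A derivative that acts on the developing cortex beneath them. Their matrix is rich in small leucine-rich proteoglycans, secreted proteins built of leucine-rich repeats that bind collagen fibrils. Of the 10 genes, *Dcn* (decorin), *Lum* (lumican), *Ogn* (osteoglycin), *Bgn* (biglycan) and *Fmod* (fibromodulin) encode such proteoglycans. *Slc6a13* encodes a GABA and taurine transporter, *Slc22a6* an organic anion transporter and *Slc13a4* a sulfate transporter. *Aldh1a2* encodes an enzyme that makes retinoic acid, and *Foxc1* a forkhead transcription factor required for meningeal development.

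In build GRCm38 *Dcn* (chr10:97479609-97518143) and *Lum* (chr10:97565128-97572703) are neighbours, 46985 bases apart. *Ogn* (chr13:49608046-49624501) lies inside the span of *Cenpp*, which is on the opposite strand and shares no exon sequence with it. *Foxc1* (chr13:31806633-31812476) is on the same chromosome as *Ogn*. *Slc6a13* (chr6:121300227-121337733) and *Slc13a4* (chr6:35267957-35308131) share another. *Fmod* (chr1:134037254-134048277), *Aldh1a2* (chr9:71215789-71296243), *Slc22a6* (chr19:8618039-8628299) and *Bgn* (chrX:73483602-73495933) have no other member on their chromosome. Of the 10 genes, 8 had a promoter in the RefSeq set for GRCm38.p6, taken as 250 bases before to 50 bases after a transcription start. Those of *Ogn* (chr13:49607765-49608064, plus strand), *Fmod* (chr1:134037004-134037303, plus strand) and *Slc13a4* (chr6:35308077-35308376, minus strand) are shown because these genes had the most similar levels across libraries. That of *Aldh1a2* (chr9:71215539-71215838, plus strand) is shown because this gene passed the test between regions. Capitals mark matches, on either strand, to the TATA motif TATAAA, to the forkhead motif GTAAACA and to the GC box GGGCGG, and these motifs do not overlap one another.
Ogn: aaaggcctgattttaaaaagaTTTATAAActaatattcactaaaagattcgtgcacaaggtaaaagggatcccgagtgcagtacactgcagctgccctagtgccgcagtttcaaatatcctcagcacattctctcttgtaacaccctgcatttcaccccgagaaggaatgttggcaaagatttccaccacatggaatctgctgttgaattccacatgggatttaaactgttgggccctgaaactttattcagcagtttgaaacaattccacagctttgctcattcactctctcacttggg
Fmod: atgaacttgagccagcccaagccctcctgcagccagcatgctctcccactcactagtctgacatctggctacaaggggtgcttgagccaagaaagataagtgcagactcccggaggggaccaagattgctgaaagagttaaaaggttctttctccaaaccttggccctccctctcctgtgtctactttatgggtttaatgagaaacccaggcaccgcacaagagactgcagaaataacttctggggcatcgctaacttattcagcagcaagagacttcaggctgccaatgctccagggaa
Slc13a4: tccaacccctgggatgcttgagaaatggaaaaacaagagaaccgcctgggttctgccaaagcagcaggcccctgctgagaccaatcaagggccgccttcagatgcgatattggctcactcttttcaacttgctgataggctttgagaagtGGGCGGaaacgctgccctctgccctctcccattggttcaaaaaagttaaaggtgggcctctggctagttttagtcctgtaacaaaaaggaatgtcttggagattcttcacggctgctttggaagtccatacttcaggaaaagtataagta
Aldh1a2: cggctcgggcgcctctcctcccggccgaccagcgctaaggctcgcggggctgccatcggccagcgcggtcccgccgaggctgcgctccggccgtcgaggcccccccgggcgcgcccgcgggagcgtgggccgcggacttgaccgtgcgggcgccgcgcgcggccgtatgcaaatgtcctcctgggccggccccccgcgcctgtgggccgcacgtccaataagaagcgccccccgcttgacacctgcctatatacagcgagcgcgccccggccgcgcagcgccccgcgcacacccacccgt
The TATA motif occurred in 13.6% of the 32851 promoters of the set, the forkhead motif in 3.65% and the GC box in 35.7%. The *Ogn* promoter held the TATA motif on both strands at 1 overlapping place, that of *Slc13a4* held 1 GC box, and those of *Fmod* and *Aldh1a2* held none of the 3 motifs. The *Aldh1a2* window differed in base composition, with 50 CpG dinucleotides and 78% G or C, against 3 CpG in *Fmod*, 4 in *Ogn* and 6 in *Slc13a4*. The median over the set was 7 CpG. The promoters of *Ogn*, *Fmod* and *Slc13a4* thus had fewer CpG than this median and no searched motif in common.

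Column headers and regions disagreed for 4 of the 8 libraries, and this bears on every comparison below. For 38538 of 38553 genes, the columns D1, V1, D2 and V2 average to the dorsal value of the comparison table and the columns D3, V3, D4 and V4 to its ventral value. The headers of V1, V2, D3 and D4 name the other region. The regions of the comparison table were used, and values under the header regions are given beside them. The relative depth of the libraries, read from the FPKM worth of single fragments, ranged from 0.901 to 1.22 dorsally and from 0.835 to 1.18 ventrally, and total depth was not given. All 10 neuronal genes examined passed the filter, with summed FPKM of 4262 to 5665 dorsally and 3775 to 4913 ventrally. Of these, 7 had lower ventral means and *Slc17a6*, a vesicular glutamate transporter gene, was D>V (log2(V/D) of -0.58, limma adjusted p = 0.00235), with 4 at an unadjusted p under 0.05. In the oligodendrocyte list, 10 of 10 genes passed the test as D>V, among them *Mbp* (log2(V/D) of -0.86), *Mobp* (-1.02) and *Cnp* (-0.72), with summed FPKM of 873 to 1149 dorsally and 478 to 628 ventrally.

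All 9 tested genes had a higher mean in ventral than in dorsal MEC, and *Dcn* and *Aldh1a2* passed the test, as 2 V>D genes with 0 D>V (limma, Benjamini-Hochberg adjusted p under 0.05 and a ratio of at least 20%). In the same test 1.45% of the 13674 genes were V>D and 2.15% were D>V (3.6% in either direction), and 48.8% had a higher ventral mean. At an unadjusted p under 0.05 there were 6 of the 9 members and 2191 of all 13674 genes, in either direction. The median log2(V/D) of mean FPKM was 0.43 over the 9 genes and -0.01 over all tested genes. Ventral libraries lay above all dorsal libraries for 4 of the 9 genes (*Dcn*, *Aldh1a2*, *Slc22a6* and *Slc13a4*), against 4.95% of all genes (11.1% not overlapping in either direction). With the regions named by the column headers, 0 of 9 genes passed by limma (0 at an unadjusted p under 0.05) and the median log2(V/D) was 0.07. Under these regions 1 of all 13674 genes passed by limma, and 721 were at an unadjusted p under 0.05. With only D1, D2, V3 and V4, whose headers and regions agree, 0 of 9 passed by limma (5 at an unadjusted p under 0.05) and the median was 0.42. In these 4 libraries 0 of all 13661 tested genes passed by limma, and 1240 were at an unadjusted p under 0.05. In whole tissue, differences in the number of fibroblasts, in RNA per fibroblast and in RNA of these genes from other cells cannot be told apart.

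**Figure D1:**
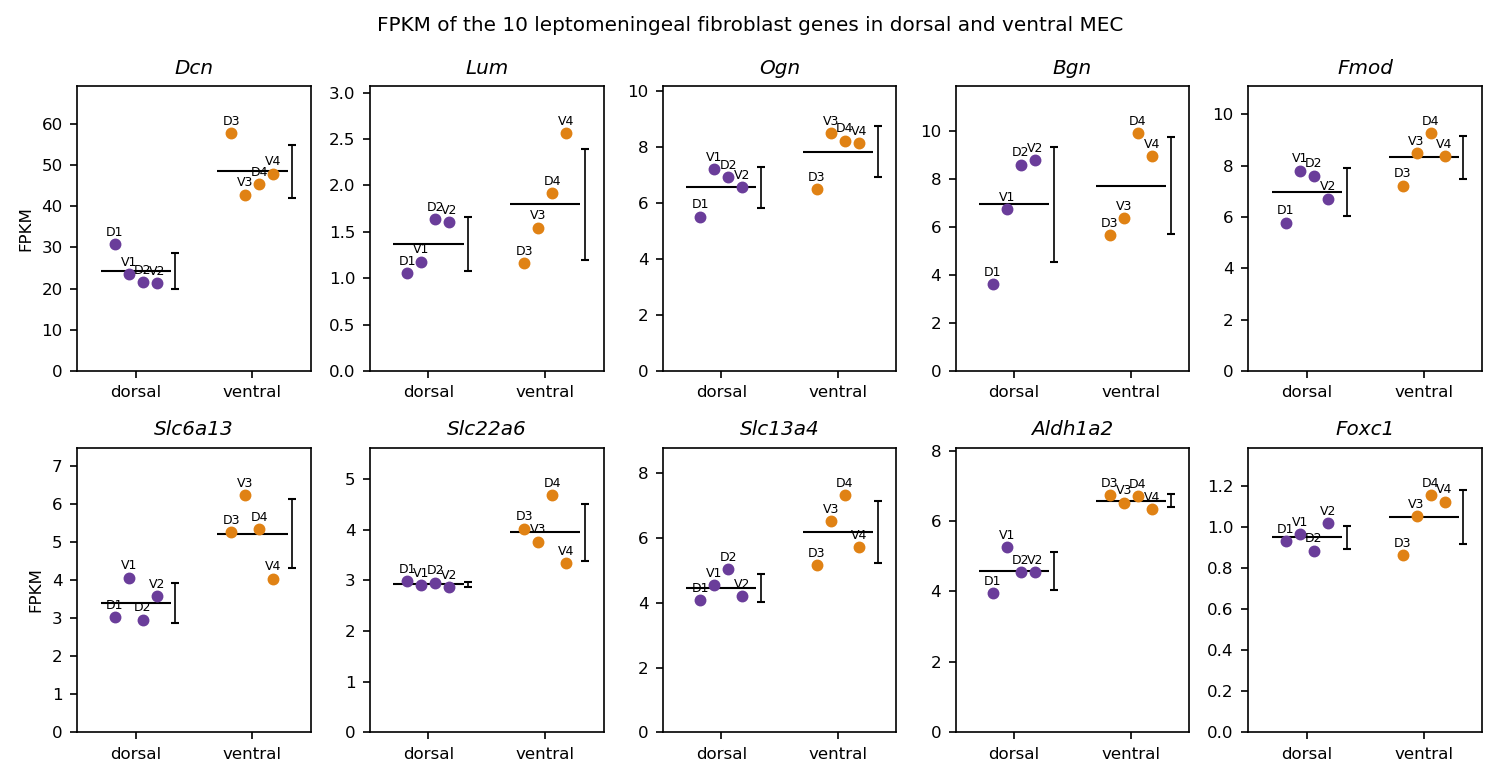
FPKM (linear axis from 0) of each of the 10 genes in the 4 dorsal (purple) and 4 ventral (orange) libraries, each point labelled with its column header. Horizontal lines are region means and bars to their right are SD. The ventral points of *Dcn*, *Aldh1a2*, *Slc22a6* and *Slc13a4* lie above all their dorsal points.

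*Dcn* was the most abundant of the 10 genes and had the largest ventral to dorsal ratio among them. Its FPKM was 30.8, 23.5, 21.6 and 21.4 in dorsal libraries D1, V1, D2 and V2, and 57.7, 42.8, 45.4 and 47.9 in ventral libraries D3, V3, D4 and V4. The lowest ventral library thus exceeded the highest dorsal one, and the highest library of each region was D1 dorsally and D3 ventrally. The means were 24.3 ± 4.43 and 48.4 ± 6.49 FPKM (SD, n = 4 libraries each), a ratio of 1.99. On the log2(FPKM + 1) scale the difference was 0.97 ± 0.13 (SE, limma adjusted p = 0.00246). The difference was -0.18 with header regions.

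The other 4 proteoglycan genes differed less, and by limma 0 of them passed the test after adjustment. Before adjustment *Fmod* was under 0.05. *Fmod* had 5.78, 7.81, 7.61 and 6.71 FPKM in D1, V1, D2 and V2, and 7.23, 8.48, 9.25 and 8.36 in D3, V3, D4 and V4. *Ogn* had 5.51, 7.22, 6.93 and 6.58 FPKM in the dorsal and 6.50, 8.49, 8.24 and 8.14 in the ventral libraries in the same order. In both genes D1 was the lowest dorsal and D3 the lowest ventral library, and D3 fell among the dorsal values. The log2(V/D) was 0.26 for each, with adjusted p of 0.306 for *Fmod* and 0.313 for *Ogn* (limma). *Bgn* had 3.62, 6.75, 8.60 and 8.77 FPKM dorsally and 5.65, 6.37, 9.89 and 8.94 ventrally. Its regions overlapped almost fully, D1 and D3 were again lowest in their regions, and its difference was 0.17 ± 0.24 (log2 of FPKM + 1, SE, limma adjusted p = 0.806). Without D1 the *Bgn* difference was -0.07. *Lum*, the least abundant tested member, had 1.06, 1.18, 1.64 and 1.61 FPKM dorsally and 1.16, 1.54, 1.91 and 2.56 ventrally, with D1 and D3 lowest in their regions. Its log2(V/D) was 0.39 (limma adjusted p = 0.571).

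The 3 transporter genes had higher ventral means, and each missed the adjusted threshold. *Slc6a13* had 3.02, 4.06, 2.96 and 3.57 FPKM in dorsal libraries and 5.26, 6.23, 5.34 and 4.04 in ventral ones. A single ventral library, V4, fell within the dorsal range, and the difference of 0.49 ± 0.12 (log2 of FPKM + 1, SE) had a limma adjusted p of 0.0613. Without V4 it passed, with an adjusted p of 0.0291. *Slc13a4* had 4.09, 4.56, 5.04 and 4.20 FPKM dorsally and 5.17, 6.53, 7.33 and 5.71 ventrally. Its regions did not overlap, although the gap between D2 and D3 was small, and the difference was 0.39 ± 0.11 (SE, limma adjusted p = 0.0807). *Slc22a6* had 2.98, 2.90, 2.95 and 2.87 FPKM dorsally, the narrowest dorsal spread of the 10 genes, and 4.02, 3.77, 4.69 and 3.34 ventrally. Its regions did not overlap either, with a difference of 0.33 ± 0.09 (SE, limma adjusted p = 0.0951). With header regions the differences were -0.13 for *Slc22a6* and -0.03 for *Slc13a4*.

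*Aldh1a2*, the retinoic acid enzyme, had 3.94, 5.26, 4.56 and 4.55 FPKM in dorsal and 6.74, 6.52, 6.70 and 6.34 in ventral libraries. The ventral libraries were nearly equal and all above the dorsal ones. The means were 4.58 ± 0.539 and 6.57 ± 0.181 FPKM (SD, n = 4 each), and the difference was 0.45 ± 0.08 (log2 of FPKM + 1, SE, limma adjusted p = 0.0162). Without library D3 the difference was 0.44, close to that with all libraries, and the adjusted p was 0.0579, in a fit where the V>D calls over all genes went from 198 to 91. With header regions the difference was 0.06. *Foxc1* had 0.930, 0.967, 0.885 and 1.02 FPKM dorsally and 0.862, 1.05, 1.16 and 1.12 ventrally, and its mean of 0.99955 lay just under the filter. With a lower filter of 0.1 FPKM its difference was 0.07 ± 0.09 (log2 of FPKM + 1, SE, limma adjusted p = 0.784), and the regions overlapped.

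In order of mean FPKM, a level per exon length, *Dcn* (36.4) stood above the other 9 genes in all 8 libraries. *Fmod* (7.65), *Bgn* (7.32) and *Ogn* (7.20) followed, and *Bgn* was not separated from either neighbour, since *Fmod* exceeded *Bgn*, and *Bgn* exceeded *Ogn*, in 4 of 8 libraries each. *Aldh1a2* (5.58) and *Slc13a4* (5.33) were likewise not separated, with a mean difference of 0.248 ± 0.721 FPKM (SD over 8 libraries). *Slc6a13* (4.31), *Slc22a6* (3.44), *Lum* (1.58) and *Foxc1* (0.99955) came below, and among these 4 each gene exceeded the next in 8 of 8 libraries.

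If the 10 genes measured a single share of meningeal tissue in each library, their levels would rise and fall in proportion. Over the 8 libraries the median Pearson's r of log2(FPKM + 1) was 0.66 over the 36 pairs of tested members, with 25 pairs above 0.5 and 1 below 0. Over all pairs of the 13674 genes the median was 0.0005, and 12.5% of pairs were above 0.5. These correlations are descriptions over 8 libraries whose region differences enter every pair. When each library was expressed as its deviation from the mean of its region, the median over the members fell to 0.25, with values from -0.89 to 0.92, 11 pairs above 0.5 and 12 below 0. The corresponding share above 0.5 over all pairs of genes was 14.5%. The members were thus more alike over all libraries than within regions.

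**Figure D2:**
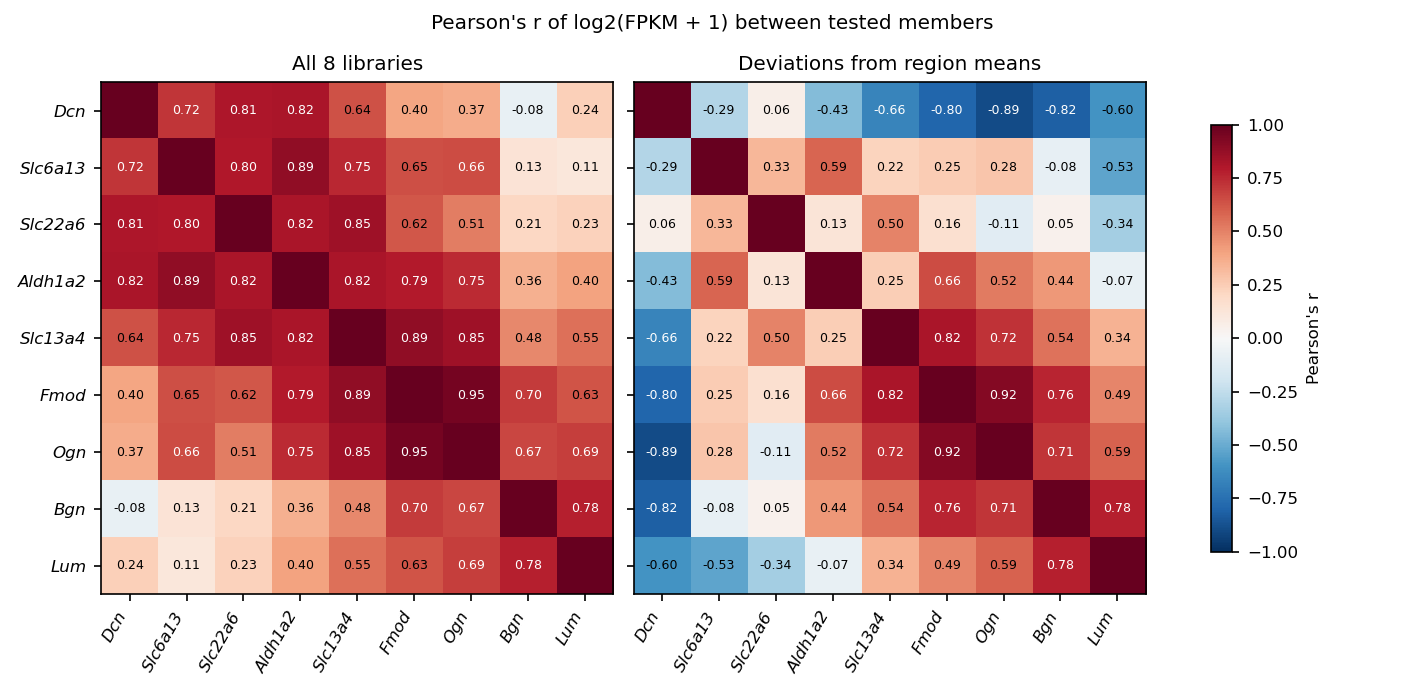
Pearson's r of log2(FPKM + 1) between the 9 tested genes, over all 8 libraries (left) and after subtracting region means (right), with red for positive and blue for negative r. *Ogn* and *Fmod* had r = 0.95 and 0.92, and the row of *Dcn* turns from mostly positive on the left to mostly negative on the right.

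*Ogn* and *Fmod*, which lie on different chromosomes, came closest to a fixed proportion. Their r was 0.95 over 8 libraries and 0.92 within regions, and the *Fmod* to *Ogn* ratio of FPKM stayed between 0.999 and 1.12, a coefficient of variation of 4.39%. The median coefficient of variation of a ratio over the 36 pairs was 24.2% and the highest was 51.6%. *Slc13a4* moved with both, with r of 0.89 with *Fmod* and 0.85 with *Ogn* (0.82 and 0.72 within regions). The ratio of *Dcn* to *Fmod*, in contrast, ranged from 2.84 in D2 to 7.98 in D3. No ratio with *Dcn* varied by less than 24.7%.

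Members were also described by role, with *Dcn* set apart after its values were seen. The 4 proteoglycan genes other than *Dcn* had a median pairwise r of 0.70, and of 0.74 within regions. Without libraries D1 and D3 their within-region r was 0.75 for *Lum* with *Bgn* and 0.68 for *Ogn* with *Fmod*. It was -0.02 for *Bgn* with *Fmod*, -0.38 for *Lum* with *Fmod*, -0.73 for *Lum* with *Ogn* and -0.74 for *Ogn* with *Bgn*. Over all 8 libraries the 3 transporters and *Aldh1a2* had a median pairwise r of 0.82, and of 0.29 within regions. Most of their likeness thus lay between the regions. Between these 2 groups the median was 0.53 (0.26 within regions), close within regions to that among the transporters and *Aldh1a2*. *Slc13a4* had within-region r of 0.82 with *Fmod*, 0.72 with *Ogn*, 0.54 with *Bgn* and 0.34 with *Lum*. In its own group it had 0.50 with *Slc22a6*, 0.25 with *Aldh1a2* and 0.22 with *Slc6a13*. Without D1 and D3 these were 0.77, 0.36, 0.13 and -0.39, and 0.85, 0.23 and 0.24, in the same order. Over all 8 libraries the lowest pair between the groups was *Lum* with *Slc6a13* at 0.11. A single axis held 65.8% of the variance of the standardised levels of the 9 genes, and a second held 21.5%, with *Bgn* (-0.55) and *Lum* (-0.46) at one end of its loadings and *Dcn* (0.42) at the other.

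*Dcn* had r of 0.30 (median) with the other proteoglycan genes and 0.76 with the transporters and *Aldh1a2*. Within regions the medians were -0.81 and -0.36. Against the mean of the other 8 tested members *Dcn* had r = 0.60 over all libraries and -0.88 within regions. This inversion rested on 2 libraries. D1 was the highest dorsal library for *Dcn* and D3 the highest ventral one, while D1 was the lowest of all 8 libraries for 6 members and D3 the lowest ventral library for 5. Without D1 and D3 together the within-region value was 0.14 and the value over the 6 remaining libraries was 0.95. Leaving out either alone gave -0.74 (D1) and -0.83 (D3) within regions.

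**Figure D3:**
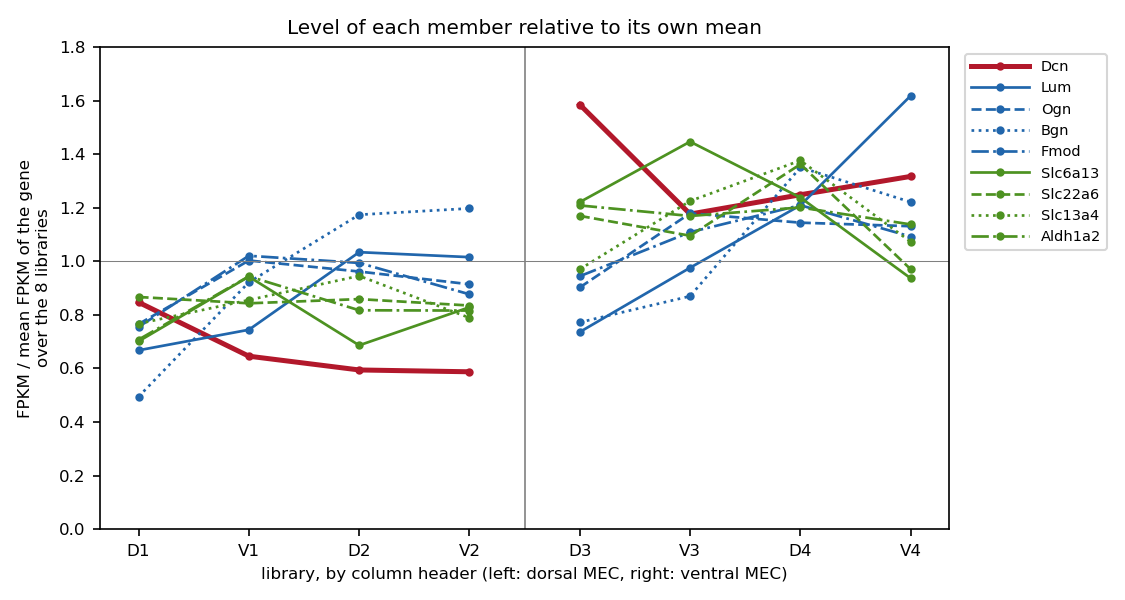
FPKM of each tested gene divided by its own mean over the 8 libraries (linear axis), with dorsal libraries left and ventral ones right of the vertical line. Lines join the values of 1 gene and imply no order of libraries. *Dcn* (thick red) is at 1.58 in D3, where 5 other genes (blue proteoglycans and green *Slc13a4*) are below 1, and all 9 genes are below 1 in D1.

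D1 held less of every tested member than the average library, with levels from 0.494 (*Bgn*) to 0.867 (*Slc22a6*) of the gene's own mean. D3 spanned 0.736 (*Lum*) to 1.58 (*Dcn*), whereas D4 held more of every member, from 1.14 to 1.38. Without D1 and D3 the median pairwise r was 0.76 over 6 libraries and 0.23 within regions, and *Ogn* with *Fmod* kept 0.90 and 0.68. The oligodendrocyte list gives a comparison of the same kind: its 10 genes, all D>V, had a median pairwise r of 0.95 over the 8 libraries and 0.66 within regions, with 100% and 73.3% of pairs above 0.5. The other lists described below had medians from -0.09 (mural) to 0.40 (endothelial) over the 8 libraries, below that of the members. Within regions these medians ran from -0.12 (retinoic acid handling) to 0.29 (mesenchymal transcription factors), with 0.27 for endothelial and 0.14 for other meningeal genes. D1 also had the lowest dorsal sum of the oligodendrocyte list (873 FPKM, against 1106 to 1149 in the other dorsal libraries) and D3 the lowest ventral sum (478, against 618 to 628). The median r of *Dcn* with the 10 oligodendrocyte genes was -0.98 (-0.87 within regions, and -0.58 there without D1 and D3). Over the 8 libraries the median was also negative for *Aldh1a2* (-0.83), *Slc22a6* (-0.81), *Slc6a13* (-0.78) and *Slc13a4* (-0.63). It was -0.40 for *Fmod*, -0.39 for *Ogn*, -0.20 for *Lum* and 0.08 for *Bgn*. Within regions *Bgn* (0.77), *Ogn* (0.76), *Slc13a4* (0.68), *Fmod* (0.68) and *Lum* (0.62) had positive values, which were between -0.11 and 0.24 without D1 and D3. *Aldh1a2* (0.24), *Slc6a13* (0.02) and *Slc22a6* (-0.04) had lower values within regions. Whether the oligodendrocyte genes bear on the member values was not tested.

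Genes of the same families and roles, other than the 10, were examined as lists. Among 12 other small leucine-rich proteoglycan genes, 4 were tested and *Prelp* was V>D (6.20 ± 0.579 against 9.72 ± 2.11 FPKM, SD, n = 4; limma adjusted p = 0.0407), with a list median log2(V/D) of 0.36. Close to *Dcn* and *Lum*, *Epyc* had 0.0896 ± 0.0409 FPKM dorsally and 0.352 ± 0.0866 ventrally, under the filter. The neighbours *Dcn* and *Lum* had r = 0.24, while *Fmod* and *Prelp*, 115840 bases apart, had r = 0.59. *Slc22a6* and the related anion transporter gene *Slc22a8*, 6204 bases apart, had r = 0.62. Among 10 other meningeal solute carriers, 8 were tested and *Slc7a11*, a cystine and glutamate exchanger gene, was V>D (12.8 against 15.9 FPKM, difference 0.28 ± 0.07 on the log2 of FPKM + 1 scale, SE; limma adjusted p = 0.0436), with a median of 0.27.

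Of 12 genes of retinoic acid handling, 8 were tested, of which 4 had higher and 4 lower ventral means, and the median log2(V/D) was 0.01. *Rbp4*, a retinol carrier gene, was V>D (6.86 ± 0.876 against 11.3 ± 1.51 FPKM; limma adjusted p = 0.00977). *Aldh1a1*, which encodes a related enzyme, was D>V (17.2 ± 2.56 against 8.42 ± 1.15 FPKM; limma adjusted p = 0.00226). Of 13 mesenchymal transcription factor genes, 3 were tested and 0 passed by limma (2 at an unadjusted p under 0.05), with 0.56 as the median. *Osr1* (log2(V/D) of 0.71, limma adjusted p = 0.133) and *Zic1* (0.56, limma adjusted p = 0.256) were the highest of these.

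Of 20 other meningeal genes, 16 were tested and 2 were V>D. *Igf2*, a growth factor gene, had 36.6 ± 1.63 FPKM dorsally and 54.4 ± 1.61 ventrally (limma adjusted p = 0.000775), and *Igfbp2*, which encodes an IGF binding protein, 3.50 ± 0.104 and 4.61 ± 0.297 (adjusted p = 0.0445). The list median was 0.25 and 14 of 16 means were higher ventrally. *Ptgds*, a prostaglandin D synthase gene that oligodendrocytes also express, was the most abundant (1007 ± 154 against 1179 ± 217 FPKM; limma adjusted p = 0.560). The collagen genes *Col1a1* and *Col3a1* were under the filter and *Col1a2* had a log2(V/D) of 0.52 (limma adjusted p = 0.144).

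**Figure D4:**
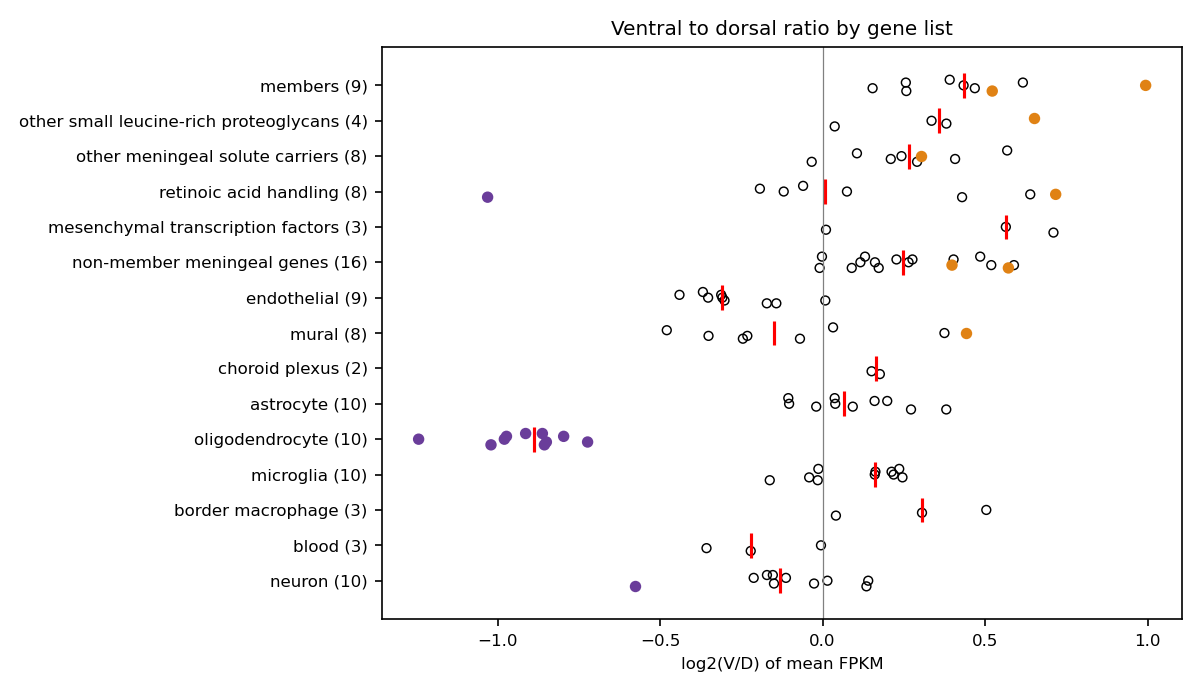
log2(V/D) of mean FPKM for each tested gene (points) by list, with the number of tested genes in parentheses and list medians as red bars. Filled points passed the test (orange V>D, purple D>V) and open points did not. The median of the 9 members is 0.43, and all 10 oligodendrocyte genes lie below 0.

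Lists of other cell types of vessels, surface and tissue, beside the oligodendrocyte list, had medians from -0.31 to 0.31. Of 9 tested endothelial genes 8 had lower ventral means, with a median log2(V/D) of -0.31 and summed FPKM of 35.7 to 41.2 dorsally and 27.6 to 34.3 ventrally, and 0 passed by limma (2 at an unadjusted p under 0.05). Of 8 mural genes 1 (*Vtn*, V>D) passed, with a median of -0.15 and sums of 54.4 to 70.9 and 54.6 to 67.9. Of 10 choroid plexus genes 6 were under 0.1 FPKM, among them *Ttr* at 0.0605 dorsally and 0 ventrally and *Otx2* at 0 in all libraries. The 2 tested ones, *Kcnj13* (4.55 ± 0.514 against 5.14 ± 1.13 FPKM, SD, n = 4) and *Kl* (1.06 ± 0.157 against 1.18 ± 0.132), had higher ventral means and 0 passed by limma (0 at an unadjusted p under 0.05). *Prlr*, the prolactin receptor gene, was under the filter at 0.185 ± 0.0850 against 0.902 ± 0.318 FPKM, and was V>D with the lower filter of 0.1 FPKM (limma adjusted p = 0.0247). The microglial and astrocyte lists had medians of 0.16 and 0.07 and the 3 tested border macrophage genes 0.31, with 0 calls in each by limma and, in this order, 2, 4 and 0 genes at an unadjusted p under 0.05. Of 3 tested blood genes 3 had lower ventral means, with a median of -0.22.

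Genes outside the members that followed their mean standardised profile most closely were sought among 13665 others. The 10 with the highest r over 8 libraries were *Cnot3* (0.98), *Ctxn3* (0.98), *Gtf2f1* (0.97), *Osr1* (0.97), *Gsg1l* (0.97), *Cgref1* (0.96), *Cdk5rap3* (0.96), *Sin3b* (0.95), *Mesdc2* (0.95) and *Cabp7* (0.95). Of these, only *Osr1* is on a list of meningeal or mesenchymal genes used here. An r above 0.9 was reached by 73 genes, among them *Igf2* (0.93), *Nupr1* (0.91) and *Cspg4* (0.91), a gene of the mural list.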

How the data were processed

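RNA-Seq was performed on 8 pooled libraries (4 dorsal, 4 ventral MEC; amplified cDNA, paired-end HiSeq). The authors processed reads with CASAVA 1.8, aligned them with TopHat2 2.0.8 and computed FPKM with Cuffdiff 2 against Ensembl transcripts; these deposited FPKM, scaled between libraries by Cuffdiff, were used as given. FPKM are not counts, so log2(FPKM + 1) was fitted with limma 3.58.1 (R 4.3.3, trend) for the 13674 genes that Cuffdiff marked as testable and whose mean FPKM reached 1, with region as the only term. A call required both a ratio of at least 20% and p under 0.05 after Benjamini-Hochberg adjustment. Libraries are pools of 3 or 4 mice, so p-values measure the spread between pools. On simulated data with 200 genes changed by 1.5 on the log2 scale, 195 (97.5%) were recovered among 13674 genes, with 12 calls outside them; this change exceeds that of every member, so recovery at the members' sizes was not tested.

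Library regions followed the deposited comparison table, whose condition means equal the column means, matched within 0.1%; the dorsal condition was identified from the study's gene list. Its fold changes, p-values and q-values were not used, nor were 4 other columns of per-sample values or the long fragment table. Gene positions came from the GENCODE annotation of GRCm38 and promoters from RefSeq. Correlations were computed in Python 3.11.15 on log2(FPKM + 1), without tests. Besides the members, named genes were up to 4 per list that passed the test or were needed to describe it, by highest mean FPKM, the 10 nearest to the member profile, and cluster neighbours. *Ttr*, *Otx2*, *Prlr*, *Col1a1*, *Col3a1*, *Col1a2*, *Nupr1* and *Cspg4* were named after their values were seen. Members and lists were chosen with earlier results of these data known.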

Additional observations from a re-analysis of the deposited data

How the results depend on the processing

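The number of members called was 2 with an added constant of 0.1, one total FPKM per library, quantile normalization, either lower filter and no ratio threshold. It was 0 with the regions of the column headers and 0 with the 4 libraries whose headers agree. In the same order, limma called 1 and 0 of all tested genes under these settings, with 721 and 1240 at an unadjusted p under 0.05, against 2191 with the regions used. Leaving out 1 library gave 1 to 3 called members: 1 without D3, where *Aldh1a2* was lost, and 3 without V4, where *Slc6a13* was added. Over all tested genes the V>D calls were 91 of 13687 without D3 and 140 of 13689 without V4, against 198 of 13674 with all libraries. The median log2(V/D) was 0.071 with header regions and 0.36 to 0.51 on leaving out 1 library. The median pairwise r was 0.25 within regions, 0.23 there without D1 and D3 (an alternative chosen after seeing the data, like the next), and 0.54 to 0.71 on leaving out 1 library. The within-region r of *Dcn* with the other members was 0.14 without D1 and D3, and -0.94 to -0.74 on leaving out 1 library. Direction turned for *Dcn* (-0.18), *Slc22a6* (-0.13) and *Slc13a4* (-0.028) with header regions and for *Bgn* (-0.075) without D1, whose range on leaving out 1 library reached 0.29. With the 4 agreeing libraries *Dcn* (0.79, limma adjusted p = 0.331) and *Aldh1a2* (0.50, adjusted p = 0.361) kept direction without passing. Of 150 member values under alternatives, 141 kept direction and side of the threshold. Not all of these were separate checks, since both lower filters gave equal values and dropping the ratio threshold kept the main fit. No paired analysis was possible because the labels give no replicate numbers and the numbers in the column headers are not shared between the regions used. Both regions came from the same pools of mice, which the fit leaves out. Tests of fragment numbers with edgeR or DESeq2 were not run, because rows of the long table name a condition and a replicate that were not matched to single samples. Total depth is not given, which limits what the low values of *Lum* and *Foxc1* can show.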

Other observations

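Each member also had its own nearest genes, chosen after their values were seen. For *Dcn* these were *Fam65b* (r = 0.99), *Rasgef1a* (0.99) and *Fibcd1* (0.99), all V>D, and they stayed at 0.96, 0.93 and 0.90 within regions. *Fibcd1* had a log2(V/D) of 1.98 (limma adjusted p = 0.00296). For *Fmod* they were *Cd74* (0.98), the gene of the MHC class II invariant chain, *Col6a2* (0.96), a collagen VI chain gene, *Zfp940* (0.95), a zinc finger gene, and *Colec12* (0.95), a scavenger receptor collectin gene, with 0.97, 0.93, 0.95 and 0.91 within regions. *Slc6a13* was closest to *Ppl* (0.97), which encodes periplakin, and *Eya1* (0.96). *Bgn* was closest to *Dynlrb1* (0.98), a dynein light chain gene, and *Gpc6* (0.97), a glypican gene. Outside the members, *Slc22a6* was closest to *Cacna1h* (0.97, and 0.90 within regions) and *Slc13a4* to *Unc13c* (0.98 and 0.96). *Lum* was closest to *Necab3* (0.97 and 0.98), *Ogn* to *Galnt14* (0.95 and 0.93) and *Aldh1a2* to *D430019H16Rik* (0.97 and 0.70). The limma adjusted p between regions was 0.0129 for *Fam65b*, 0.0155 for *Rasgef1a*, 0.266 for *Cd74*, 0.557 for *Zfp940*, 0.398 for *Col6a2* and 0.306 for *Colec12*.

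In the 20 groups of 4 libraries formed by the 10 genes and 2 regions, 0 held a library whose gap to its nearest neighbour passed the Dixon limit. The highest ratios of this gap to the range were 0.826 (*Ogn*, ventral library D3) and 0.776 (*Dcn*, dorsal library D1). With 4 libraries in a group, this check can miss a library that stands apart.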
